A study of Rattus norvegicus with 6 samples.

Results

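The opioid system of the rat prelimbic cortex (PL) was read here from 8 genes, the peptide precursors Penk, Pdyn, Pomc and Pnoc and the receptors Oprm1, Oprd1, Oprk1 and Oprl1. They were measured by 14 probe sets, 5 for the precursors and 9 for the receptors, of 31042 probe sets tested. A probe set is a group of short probes along 1 transcript, and a member is each probe set whose only gene symbol in the platform annotation is 1 of the 8. No probe set with several symbols held a member, so the number left out for that reason was 0. The samples were contralateral PL of male Sprague-Dawley rats, bought at 6 to 7 weeks of age and killed 14 days after surgery. In the SNI group (3 samples) the tibial and common peroneal branches of the left sciatic nerve had been cut and the sural branch spared, a model of lasting neuropathic pain. In the control group (3 samples) these nerves had only been exposed. Both groups thus shared anesthesia and incision, for which the sample labels name isoflurane and the methods pentobarbital, and neither source names an opioid drug. The tissue was a whole dissected piece, and no source ties the 3 samples of a group to different rats. The p-values therefore reflect only how far these 3 samples lie apart, a spread that may be technical.

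Opioid peptides are cut from large precursor proteins in secretory vesicles. Penk yields the enkephalins, Pdyn the dynorphins, Pomc beta-endorphin together with ACTH and melanocortins, and Pnoc nociceptin. Their receptors are Oprm1 (mu), Oprd1 (delta), Oprk1 (kappa) and Oprl1, which binds nociceptin and not the classical opioids. All couple to inhibitory G proteins, which lower cyclic AMP, open potassium channels and close calcium channels, so that neurons fire and release less. In cortex, enkephalin, dynorphin and nociceptin are made largely by GABA interneurons, while striatum, which lies close to the medial prefrontal cortex, is rich in Penk and Pdyn.

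Values are log2 signals less the middle of the probe set's own 6 values, so that with 6 samples the inner pair lies at equal distances on either side of 0. Levels of different mRNAs therefore cannot be ranked, detection cannot be judged, and neither the labelled tissue nor the presence of any cell type could be checked against its markers. Control samples were more variable than SNI samples (median SD of a probe set 0.107 against 0.0673). A fit without control samples 1 and 3 together, chosen after seeing the data, is among the alternatives below. Array quality weights, an alternative in which more variable arrays count less, were 0.53, 0.35 and 1.68 for control samples 1 to 3. For SNI samples 1 to 3 they were 1.14, 1.29 and 2.20. The bacterial hybridization controls added to each array had a mean of 0.054 to 0.19 on the SNI arrays and −0.22 to −0.047 on the control arrays, and their part in the differences below was not tested, apart from the fit that takes them as a covariate. The question of each comparison was whether an mRNA differed between SNI and control PL. It was tested two-sided with limma, which the methods name for the arrays. The unpaired t-test that the methods give as their general test served as an alternative and is called the methods' t-test here. Adjusted p-values are Benjamini-Hochberg values over all 31042 probe sets or, for a gene (the mean of its probe sets), over all 14217 genes. With 3 against 3 arrays the exact permutation test cannot give a p under 0.1, and the number of arrays limits the precision.

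Penk mRNA was lower in the PL of the SNI group than in that of the control group, and it had the largest difference among the 8 genes. Penk was at −0.15, −0.19 and −0.18 in SNI samples 1 to 3 and at 0.15, 0.26 and 0.28 in control samples 1 to 3. Every SNI sample lay below every control sample, and the gap between the nearest samples of the 2 groups was wider than the range within either group. The difference of the single probe set, 1367949_at, was −0.40 on the log2 scale (SE 0.062, 95% confidence interval −0.54 to −0.26), and its adjusted p of 0.0762 in limma did not pass 0.05. As 1 of 14217 genes it was 24.2% lower on the linear scale (95% confidence interval 17.1 to 30.7%, limma adjusted p = 0.127), with 8 genes having a smaller p. The exact permutation test gave p = 0.1, the smallest it allows. In a bulk sample, fewer cells that make Penk and less Penk mRNA in each cell cannot be told apart.

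**Figure D1:**
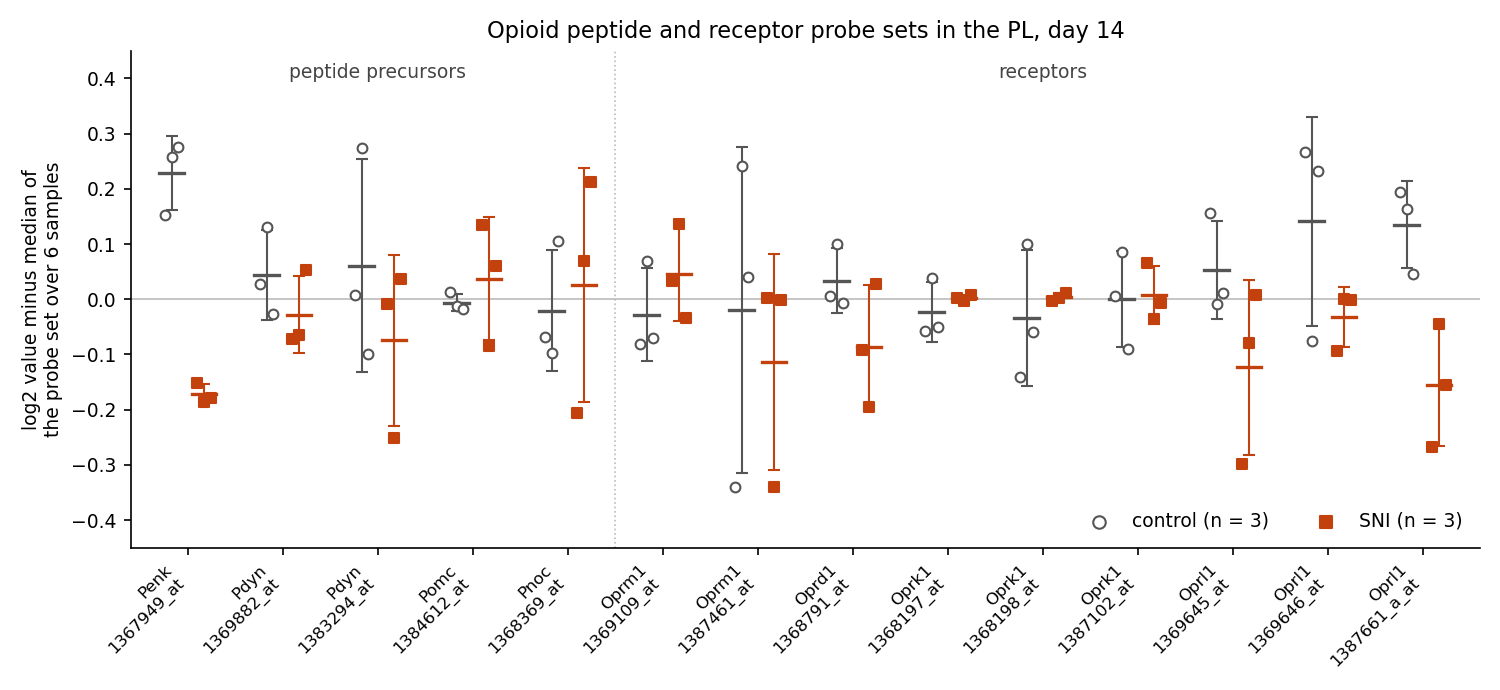
The y axis gives log2 values centred on each probe set's median of 6, and the x axis the 14 opioid probe sets. Open circles are the 3 control samples and filled squares the 3 SNI samples, the horizontal bar is the group mean and the error bar the SD. The groups are apart for Penk (SNI −0.19 to −0.15, control 0.15 to 0.28) and for the Oprl1 probe set 1387661_a_at, and they overlap for the other 12.

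The other precursors did not show this pattern. Pdyn was read by 2 probe sets. Its mean over both was −0.040, −0.16 and 0.045 in SNI samples 1 to 3, and 0.018, 0.20 and −0.063 in control samples 1 to 3. The groups overlapped, with SNI sample 3 above control samples 1 and 3. The difference was −0.10 (95% confidence interval −0.30 to 0.093, limma adjusted p = 0.654). Without control samples 1 and 3 together it was −0.25 (unadjusted p = 0.031, limma adjusted p = 0.245), without control sample 2 −0.028, without SNI sample 2 −0.050 and with array quality weights −0.022. Singly, 1369882_at gave −0.072 and 1383294_at −0.14. The second of these spanned 0.526 over the 6 samples, more than Penk did (0.461), but without a division by group. Control sample 2 was the highest sample on both Pdyn probe sets (0.13 and 0.27).

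Pomc, the precursor of beta-endorphin, is transcribed mainly in the pituitary and hypothalamus. Its probe set 1384612_at was at 0.13, −0.085 and 0.061 in SNI samples 1 to 3 and at 0.012, −0.012 and −0.018 in control samples 1 to 3. SNI samples lay both above and below the 3 control samples, which stood within a narrow band (SD 0.016). The difference was 0.043 (95% confidence interval −0.11 to 0.20, limma adjusted p = 0.836). Pnoc was at −0.21, 0.069 and 0.21 in SNI samples 1 to 3 and at −0.069, −0.098 and 0.10 in control samples 1 to 3. SNI samples 1 and 3 were the lowest and the highest of all 6, so the group means differed by only 0.046 (95% confidence interval −0.21 to 0.30, limma adjusted p = 0.899). A change of Pnoc in either direction by up to these limits is within the error.

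Among the receptors, Oprl1 had the largest difference. The mean of its 3 probe sets was −0.22, −0.041 and −0.049 in SNI samples 1 to 3 and 0.21, 0.026 and 0.097 in control samples 1 to 3. The groups did not overlap, but SNI sample 2 (−0.041) and control sample 2 (0.026) lay close together, and sample 1 was the farthest out in both groups. The difference was −0.21 (SE 0.074, 95% confidence interval −0.38 to −0.043, limma adjusted p = 0.294), which did not pass. All 3 probe sets were lower in the SNI group, 1387661_a_at by 0.29 (difference −0.29, SE 0.078, limma adjusted p = 0.190), 1369645_at with −0.18 and 1369646_at with −0.17. Probe set 1387661_a_at, whose suffix marks probes shared by alternative transcripts of a gene, was at −0.27, −0.046 and −0.16 in SNI samples 1 to 3 and at 0.20, 0.16 and 0.046 in control samples 1 to 3, without overlap. The groups overlapped on the other probe sets of Oprl1, where control sample 2 was at −0.0083 and −0.076.

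The 3 classical receptors overlapped between the groups. Oprm1, the target of morphine, was read by probe sets that differed in sign, 0.073 on 1369109_at and −0.094 on 1387461_at, with a gene mean of −0.010 (95% confidence interval −0.22 to 0.20, limma adjusted p = 0.979). Without control samples 1 and 3 together the mean was −0.19 (unadjusted p = 0.041, limma adjusted p = 0.267). Probe set 1387461_at had the widest range of the 14 (0.582), and it was lowest in control sample 1 (−0.34) and SNI sample 2 (−0.34) and highest in control sample 2 (0.24). Probe set 1369109_at ran from −0.082 in control sample 1 to 0.14 in SNI sample 2. The 2 probe sets thus disagreed on SNI sample 2, and the gene mean hides this. Oprd1, the delta receptor that binds enkephalins, was at −0.092, −0.20 and 0.027 in SNI samples 1 to 3 and at 0.0063, 0.10 and −0.0063 in control samples 1 to 3. Its difference was −0.12 (95% confidence interval −0.28 to 0.043, limma adjusted p = 0.518), with SNI sample 3 above control samples 1 and 3. It was −0.18 without SNI sample 3 (unadjusted p = 0.049, limma adjusted p = 0.615), −0.066 without SNI sample 2, −0.075 with array quality weights and −0.19 without control samples 1 and 3 together. Oprk1, the dynorphin receptor, was read by 3 probe sets with differences of 0.026, 0.037 and 0.0076. Its gene mean lay within −0.012 to 0.022 in the SNI samples and within −0.067 to 0.075 in the control samples, the smallest spread of the 8 genes in the SNI group (SD 0.017). The difference was 0.024 (95% confidence interval −0.11 to 0.16, limma adjusted p = 0.907).

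**Figure D2:**
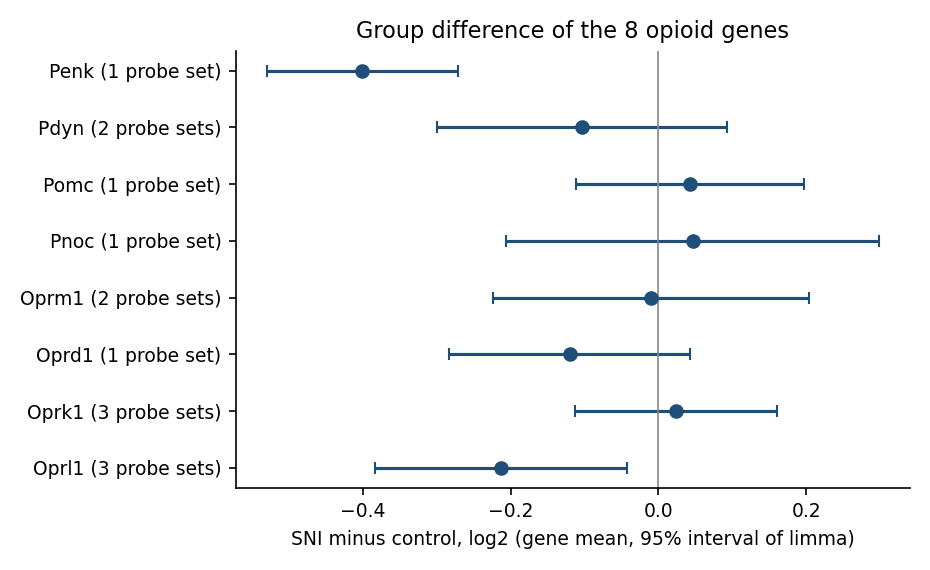
Difference of the gene mean between the SNI and control groups on the log2 scale (x axis) for the 8 opioid genes (y axis, with the number of probe sets). Points are the differences and bars limma's 95% confidence intervals. The intervals of Penk (−0.53 to −0.27) and Oprl1 (−0.38 to −0.043) lie below 0 before adjustment for multiple testing, and those of the other 6 genes cross 0.

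Counted over the members, 0 of the 14 probe sets passed an adjusted p of 0.05, which 0.0322% of all probe sets did. At an unadjusted p under 0.05, 2 of the 14 passed in limma and 2 with the methods' t-test, against 13.1% of all probe sets in limma and 3724 of the 31042 with that t-test, so the share is near the background and is not a result about the opioid genes. Both were lower in the SNI group and 0 higher, against 7.47% lower and 5.6% higher of all probe sets. The groups did not overlap for 2 of the 14, with SNI below in both, against 19.6% of all probe sets in either direction and 11.2% with SNI below. A lower mean in the SNI group was found for 8 of the 14, against 50.4% of all probe sets. Of the 8 genes, 0 passed adjustment, as did 0% of all genes, and 5 had a lower mean in the SNI group, against 54.8% of all genes. Penk and Oprl1, 2 of the 8, were lower at an unadjusted p under 0.05 (13.2% of all genes in either direction, 9.19% lower) and without overlap (20.1% in either direction, 13.7% with SNI below). Without SNI sample 3 the number lower was 3 of 8, with Oprd1 added, and without control samples 1 and 3 together it was 3 of 8, namely Penk, Pdyn and Oprm1. The background moved as well, since the share of all genes lower was 14.7% with array quality weights, 4.42% with the hybridization controls as a covariate, 10.9% without control samples 1 and 3 together, 5.69% without SNI sample 1, 6.34% without SNI sample 2, 5.70% without SNI sample 3, 7.50% without control sample 1 and 14.6% without control sample 2. The share of all genes higher was 7.84% with array quality weights and 4.05% with the hybridization controls as a covariate. Counts of list members in these settings, given further on, stand against these shares. The median difference of the 8 genes was −0.057, and that of all genes −0.011. What set Penk apart was the size of its difference beside its small spread. Of all genes, 0.464% had a lower difference, and of all probe sets 1.61% had a larger one in either direction. Penk is named here as the lowest of the 8, so these shares are descriptions.

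Penk was then set against each of the other members within the arrays, where a shift common to an array cancels. Penk was chosen as the lowest of the 8, so these 7 differences are descriptions. Penk minus Pdyn was at −0.11, −0.028 and −0.22 in SNI samples 1 to 3 and at 0.13, 0.054 and 0.34 in control samples 1 to 3, without overlap, and differed by −0.30 (95% confidence interval −0.50 to −0.096). Penk minus Pnoc differed by −0.45 (−0.71 to −0.19), Penk minus Pomc by −0.44 (−0.61 to −0.28) and Penk minus Oprk1 by −0.42 (−0.56 to −0.29). For Penk minus its receptor Oprd1 the value was −0.28 (−0.45 to −0.11), and for Penk minus Oprm1 −0.39 (−0.57 to −0.21). These 6 did not overlap between the groups. Penk alone was already apart, and the share for Penk minus any other gene was not computed. The count is therefore not a result about the 6 partners. With the hybridization controls as a covariate Penk minus Pdyn was −0.17 (SE 0.20), Penk minus Pomc −0.18 (SE 0.12) and Penk minus Oprd1 −0.17 (SE 0.17). Without control samples 1 and 3 together Penk minus Pdyn was −0.18 (SE 0.089) and Penk minus Oprm1 −0.24 (SE 0.068). Penk minus Oprl1 overlapped and differed by −0.19, with an interval that crosses 0 (−0.40 to 0.026). In the nociceptin pair, the receptor Oprl1 alone was already apart between the groups, while its ligand Pnoc overlapped. Their difference is therefore a description too. Pnoc minus Oprl1 was at 0.015, 0.11 and 0.26 in SNI samples 1 to 3 and at −0.27, −0.12 and 0.0080 in control samples 1 to 3, a difference of 0.26 (95% confidence interval 0.049 to 0.47) across a narrow gap. For Pdyn minus its receptor Oprk1 the difference was −0.13 (−0.28 to 0.028), with overlap.

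By the root mean square of the differences over the 6 samples, the genes most like Penk were Cnot8 (0.0365), a subunit of a complex that shortens mRNA tails, Csrnp3 (0.0480), a nuclear protein, and Sprn (0.0598), a prion-like protein. Their log2 differences were −0.34, −0.39 and −0.31, each without overlap of the groups and none past adjustment (limma adjusted p = 0.143, 0.147 and 0.156). With array quality weights these 3 passed (0.0460, 0.0497 and 0.0499), among 35 of all genes. The genes most like Oprl1 were Mbnl2 (0.0165), a splicing regulator, Slc2a3 (0.0197), the neuronal glucose transporter, and Smc1a (0.0237), a cohesin subunit, with log2 differences of −0.20, −0.19 and −0.24.

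Enzymes that make and break down opioid peptides were compared next. Of 18 listed genes 16 were measured, and at an unadjusted p under 0.05 in limma 3 were lower and 0 higher in the SNI group, against 9.19% lower and 3.96% higher of all genes. No member passed adjustment (limma and the methods' t-test, 0 of 16 each). The 3 were Pcsk2, a convertase that cuts Penk and Pdyn precursors, Scg5, its chaperone, and Prep, a peptidase that cleaves behind proline. Pcsk2 was at −0.26, −0.16 and −0.10 in SNI samples 1 to 3 and at 0.14, 0.10 and 0.14 in control samples 1 to 3, without overlap, a difference of −0.30 (SE 0.059, adjusted p = 0.175). Prep had a difference of −0.28 (SE 0.059, adjusted p = 0.196) and Scg5 one of −0.17 (SE 0.055, adjusted p = 0.270), both without overlap. Cpe, which trims the cut peptides, was at −0.00061, and Mme, the neprilysin that degrades enkephalins, at 0.043, both with overlap. The median of the list was −0.021, close to that of all genes. With the hybridization controls as a covariate the numbers were 1 lower and 0 higher.

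Downstream of the receptors, 33 of 37 listed signalling genes were measured. At an unadjusted p under 0.05 in limma 6 were lower and 0 higher, against 9.19% and 3.96% of all genes, and none passed adjustment (0 of 33 in limma and with the methods' t-test). Their median was −0.064, and 25 of the 33 had a lower mean in the SNI group, against 54.8% of all genes. Rgs17, a regulator that ends Gi signalling, had a difference of −0.35 (SE 0.082, adjusted p = 0.201) over 5 probe sets. Gnai1 and Gnao1, inhibitory alpha subunits, had differences of −0.33 (SE 0.10) and −0.16 (SE 0.054), and Adcy8, a calcium-driven adenylyl cyclase, one of −0.30 (SE 0.093). Of the other inhibitory alpha subunits measured, Gnaz was at −0.12 (SE 0.057) and Gnai2 at 0.11 (SE 0.056). Every SNI sample lay below every control sample for Gnaz and above every control sample for Gnai2. For Gnai1, control sample 2 (0.022) lay near SNI sample 1 (−0.022), while control samples 1 and 3 were at 0.35 and 0.41. Without control samples 1 and 3 the difference of Gnai1 was −0.094, where 5 of the 33 were lower at an unadjusted p under 0.05. The number lower was 3 without SNI sample 1, 10 with array quality weights, where 2 were higher, and 0, with 1 higher, when the hybridization controls were a covariate. The potassium channel subunit Kcnj3 was at −0.12 (95% confidence interval −0.26 to 0.011). Among the other effectors, Kcnj6 was at −0.078 and the arrestin Arrb2 at 0.0073, both with overlap.

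**Figure D3:**
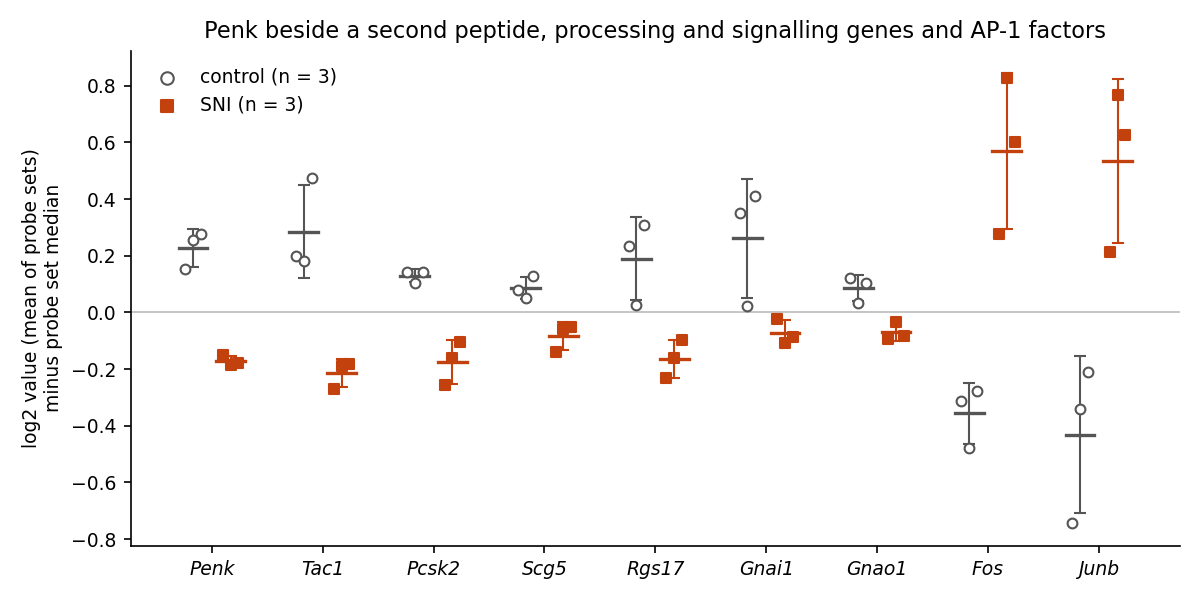
Log2 value, as the mean of a gene's probe sets minus the probe set medians (y axis), for Penk and 8 genes of the fixed lists (x axis). Open circles are the 3 control samples and filled squares the 3 SNI samples, the horizontal bar is the group mean and the error bar the SD. The SNI samples lie below the control samples for Penk through Gnao1 and above them for Fos (0.28 to 0.83 against −0.48 to −0.28) and Junb.

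Transcription factors known to act at opioid genes were listed with them. Of 21 listed, 19 were measured, and in limma 5 were higher and 1 lower at an unadjusted p under 0.05, against 3.96% higher and 9.19% lower of all genes, with none past adjustment in limma (0 of 19) or with the methods' t-test. The AP-1 subunit Fos, which in other settings drives Penk transcription, was at 0.28, 0.83 and 0.60 in SNI samples 1 to 3 and at −0.31, −0.48 and −0.28 in control samples 1 to 3. Its difference was 0.93 (SE 0.13, adjusted p = 0.127), opposite in sign to that of Penk, with both groups apart. Egr2, which the study chose on these arrays, had a difference of 1.01, Junb one of 0.97 and Egr1 one of 0.66, each without overlap. Creb1, the cyclic AMP response factor, was at −0.11 (95% confidence interval −0.27 to 0.047) over 4 probe sets. Kcnip3, a calcium-binding repressor of Pdyn, had a difference of −0.21 (SE 0.086, adjusted p = 0.341), and its groups overlapped. SNI sample 1 was the lowest of its group for Fos and Egr2. When it was left out, Fos passed (limma adjusted p = 0.0434), as did Egr2 (0.0308), and Fos also passed with array quality weights (0.0497). With the hybridization controls as a covariate Junb passed, with a difference of 1.86 (limma adjusted p = 0.0202).

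Most markers of the cells that make these peptides had smaller differences than Penk. Of 26 listed genes of GABA interneurons 22 were measured, with a median of −0.098. At an unadjusted p under 0.05, 2 were lower and 0 higher, close to the 9.19% lower of all genes. A lower mean in the SNI group was found for 17 of the 22, against 54.8% of all genes. For 5 of the 22 every SNI sample lay below every control sample, against 13.7% of all genes. The number lower at an unadjusted p under 0.05 was 7 without control sample 1, 6 without control sample 2 and 4 without SNI sample 2. It was 5 with the replicate block (7.46% lower of all genes), 9 with array quality weights and 0 with the hybridization controls as a covariate. Tac1, the precursor of substance P, which is in the lists of interneurons and of striatal neurons, had the largest difference, with −0.27, −0.19 and −0.18 in SNI samples 1 to 3 and 0.20, 0.18 and 0.47 in control samples 1 to 3. Its difference of −0.50 (SE 0.085, limma adjusted p = 0.143) was in the direction of Penk and likewise did not pass, except with array quality weights (−0.58, adjusted p = 0.0460). With the hybridization controls as a covariate it was −0.27 (SE 0.18). Reln, a matrix protein of interneurons, was at −0.27 (SE 0.061). Gad1 and Gad2, the enzymes that make GABA, were at −0.23 and −0.20, Sst, the precursor of somatostatin, at −0.17, Pvalb at −0.28 and Vip at 0.0060. The groups overlapped for Gad1, Sst, Pvalb and Vip, and not for Gad2. The mean of the interneuron list was −0.11 to 0.0095 in the SNI samples and 0.0050 to 0.16 in the control samples. Penk minus this mean differed by −0.29 (95% confidence interval −0.43 to −0.14), without overlap. Since Penk was chosen as the lowest of the opioid genes, this difference and those from the striatal and claustral lists below are descriptions.

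Striatal projection neurons make much Penk. Of 20 listed striatal genes 18 were measured, 3 of them lower and 0 higher at an unadjusted p under 0.05, against 9.19% and 3.96% of all genes, and none past adjustment (0 of 18). Their median was −0.039. The number lower was also 3 without control samples 1 and 3 together, and 6 with array quality weights, where Tac1 passed adjustment. The 3 were Tac1, Ppp1r1b (−0.26, SE 0.063), a phosphatase inhibitor of dopamine signalling, and Bcl11b (−0.30, SE 0.12), which deep cortical layers also express. Adora2a and Drd2, receptors of the striatal neurons that make enkephalin, were at 0.053 (95% confidence interval −0.10 to 0.21) and 0.022 (−0.18 to 0.22), and Drd1 was at −0.16 (−0.35 to 0.032), all with overlap. The mean of the list was −0.032 to −0.023 in the SNI samples and 0.035 to 0.084 in the control samples. Penk minus this mean differed by −0.31 (95% confidence interval −0.44 to −0.19), without overlap, and by −0.24 (SE 0.12) with the hybridization controls as a covariate. The part of striatal tissue in the difference of Penk was not tested. Since levels cannot be read, which of the striatal markers were near background is unknown.

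Among 14 listed markers of claustrum and deep layers, 12 were measured, with 3 lower and 0 higher at an unadjusted p under 0.05, against 9.19% and 3.96% of all genes. The number lower was 5 with array quality weights. The 3 lower in the main fit were Rprm (−0.37) and Tle4 (−0.25), genes of layer 6 neurons, both without overlap, and Synpr (−0.17), with overlap. The highest of the list, Ccn2 (0.45), spread from −0.99 to 0.21 over the control samples alone. Penk minus the mean of this list differed by −0.35 (95% confidence interval −0.53 to −0.17), and by −0.098 (SE 0.15) with the hybridization controls as a covariate. Oprk1, which claustrum expresses strongly, was at 0.024 and the claustral marker Gnb4 at −0.048. Gng2 of the same list was at −0.12, and the groups overlapped for all of these. Of the 12 measured, 8 had a lower mean and 4 a higher one, against 54.8% lower of all genes. In the list of excitatory cortical neurons (13 measured) the median was 0.016. At an unadjusted p under 0.05, 2 were higher and 1 lower, against 3.96% higher and 9.19% lower of all genes. Camk2a was at 0.29 and Cux2 at 0.19, both without overlap. Neurod6, the lowest of the list, was at −0.25, with overlap. Several other cell types had differences of the opposite sign to Penk. Of 10 microglial markers 6 were higher at an unadjusted p under 0.05 and 0 lower, with a median of 0.24, among them C1qa (0.36), C1qb (0.26), P2ry12 (0.39) and Csf1r (0.29), against 3.96% higher of all genes. With the hybridization controls as a covariate 2 of the 10 were higher, against 4.05% of all genes, and C1qa was at 0.16, P2ry12 at 0.11 and Csf1r at 0.058. Of 8 measured markers of blood and endothelium 7 had a higher mean, against 6432 of all 14217 genes. At an unadjusted p under 0.05, 3 were higher, Hbb (0.49), Alas2 (0.44) and Cldn5 (0.22), and 0 lower, against 3.96% higher of all genes. The medians were 0.095 for 9 astrocyte markers, of which Aldoc (0.16) was apart between the groups, and −0.17 for 9 oligodendrocyte markers. Of 9 pituitary markers, listed for the sake of Pomc, 2 were higher at an unadjusted p under 0.05, against 3.96% of all genes. They were the transcription factor Tbx19 (0.27, without overlap), which drives Pomc in the pituitary, and Gh1 (0.20, with overlap). The part of these cell types in the difference of Penk was not tested.

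**Figure D4:**
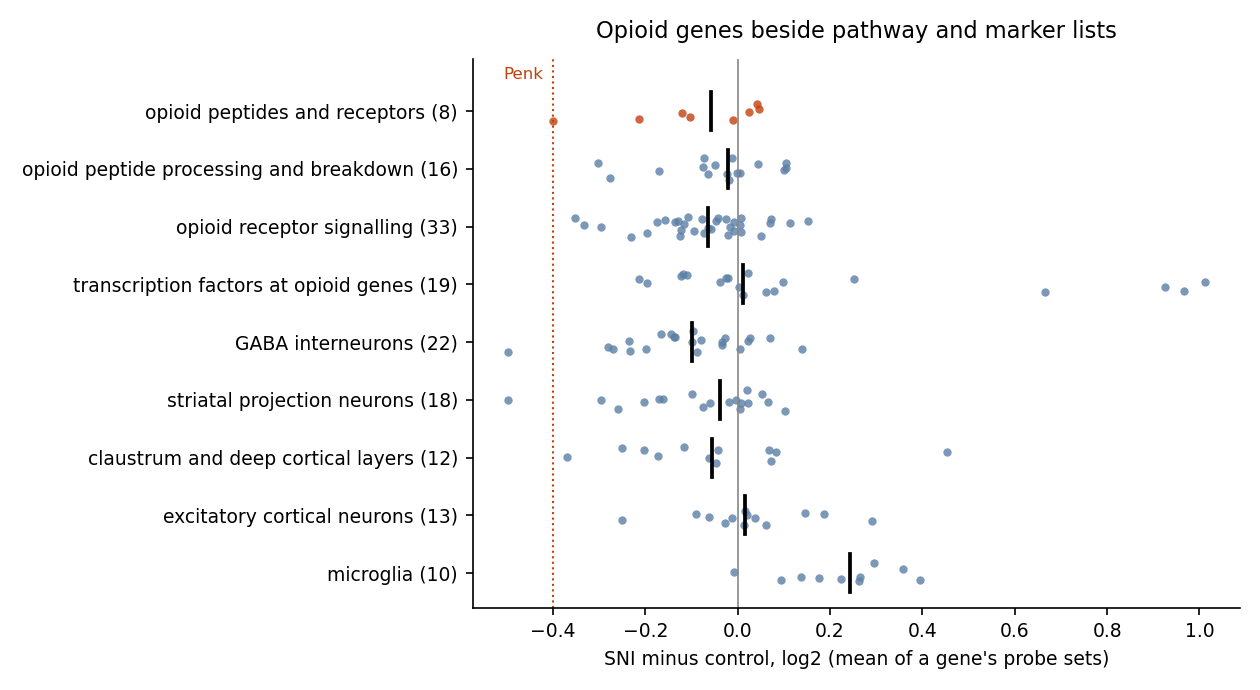
Difference between the SNI and control groups on the log2 scale (x axis) for the 8 opioid genes and the measured members of 8 lists (y axis, number of genes in brackets). Each point is a gene as the mean of its probe sets, the black bar is the median of the list and the dotted line the value of Penk. Tac1 (−0.50), in the lists of interneurons and striatal neurons, is the only listed gene below Penk (−0.40).

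The difference of Penk kept its sign in all 15 alternative settings, between −0.44 and −0.30. Its unadjusted gene-level p stayed under 0.05 in each, between 2.1e-05 and 0.046. The same values tested as a probe set were under 0.05 in 13 of 14 settings. They missed it with the hybridization controls as a covariate (limma unadjusted p = 0.066). The adjusted p lay between 0.0390 and 0.589, and the gene passed 0.05 only when arrays were weighted by their quality (−0.42, adjusted p = 0.0390). The smallest difference came with the hybridization controls as a covariate (−0.30, SE 0.12, adjusted p = 0.589). Oprl1 stayed between −0.25 and −0.13, with an unadjusted p under 0.05 in 9 of the 15 settings. It missed that level without SNI sample 1 (−0.15), without control sample 1 (−0.17), without control samples 1 and 3 together (−0.13), with the hybridization controls as a covariate (−0.23), with the median of its probe sets (−0.18) and with the methods' t-test.

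**Figure D5:**
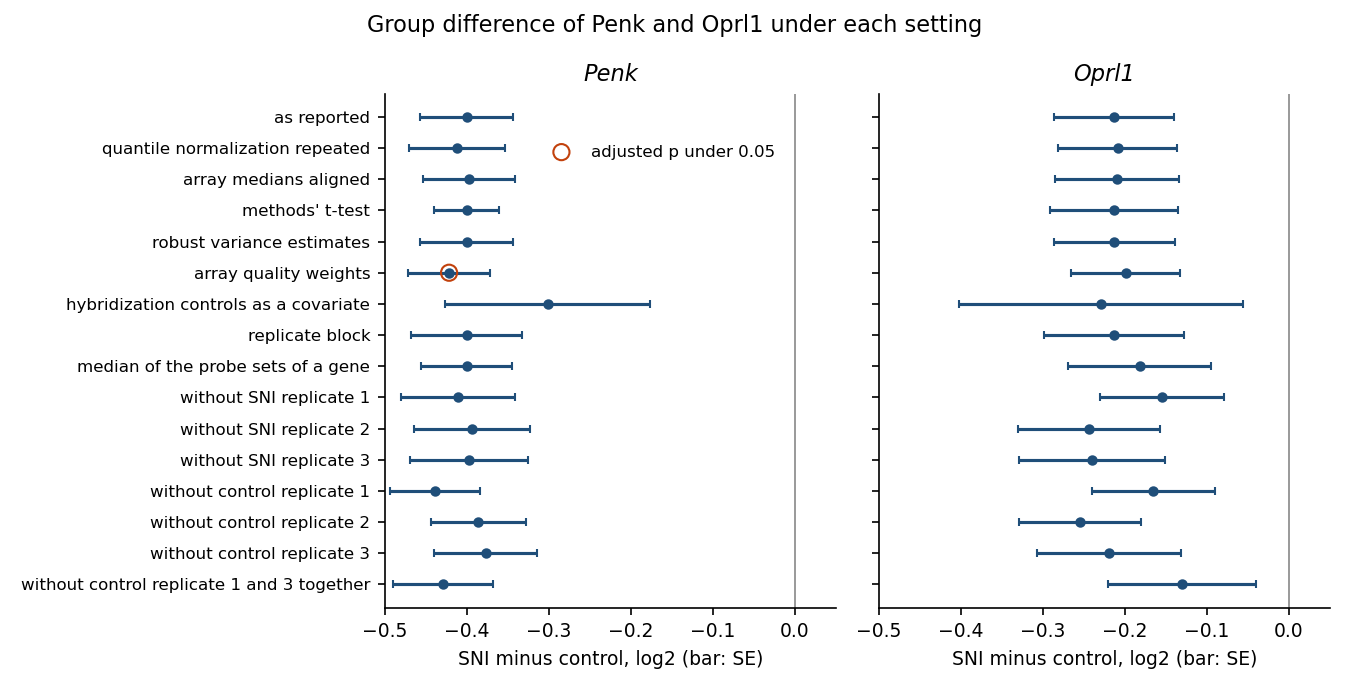
Difference of the gene mean between the SNI and control groups on the log2 scale (x axis) for Penk (left) and Oprl1 (right) as reported and under each of 15 alternatives (y axis). Points are the differences, bars their standard errors, and a ring marks an adjusted p under 0.05, which Penk reached with array quality weights (−0.42). All values are below 0, from −0.44 to −0.30 for Penk and from −0.25 to −0.13 for Oprl1.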

How the data were processed

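Total RNA of the contralateral PL was hybridized to Affymetrix rat genome arrays, 3 per group. RMA background correction, log2 transformation and quantile normalization were done by the authors. Beyond that, each probe set of the deposited log2 table has a median of 0 across the 6 samples, a centring that no source describes. The authors' software versions were not given in any source used here. Groups came from the sample labels. Tests excluded 57 control probe sets. By the platform annotation 20826 probe sets had 1 symbol, and the mean of these stood for the gene.

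Differences, SNI minus control, were fitted with lmFit and eBayes of limma 3.58.1 in R 4.3.3, without covariates, and checked on simulated data. Plots used matplotlib 3.10.9 under Python 3.11.15. Lists are described by counts and medians at an unadjusted p under 0.05. Differences between 2 mRNAs within an array were fitted together with all genes. The members, lists and tests were chosen with earlier results of these data known. All members were named, together with list members at an unadjusted p under 0.05 with groups apart (up to 4 per list and direction) and the 3 genes nearest to each member at that level. Single list genes given for their role or value, such as Cpe, Mme, Gnai2, Gnaz, Kcnj3, Kcnj6, Arrb2, Creb1, Kcnip3, Gad1, Gad2, Sst, Pvalb, Vip, Adora2a, Drd1, Drd2, Synpr, Gng2, Gnb4, Ccn2, Neurod6 and Gh1, were named after their values were seen. Alternatives were repeated quantile normalization, aligned array medians, the methods' t-test, robust variances, array quality weights, the hybridization controls as a covariate, the replicate number as a block, the median of probe sets, and each sample left out. Leaving out control samples 1 and 3 together was chosen after seeing the data.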

Additional observations from a re-analysis of the deposited data

How the results depend on the processing

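The sign of the difference was the same in all settings for Penk, Oprl1, Pdyn and Oprd1 as gene means. All 31042 probe sets gave 10 calls at an adjusted p under 0.05, and the count became 66 with quantile normalization repeated, 0 with the methods' t-test, 792 with array quality weights and 5 without control samples 1 and 3 together, while leaving out single samples gave 0 to 35. Calls at an unadjusted p under 0.05 numbered 4055, 6649 with array quality weights, 2660 with the hybridization controls as a covariate and 2644 to 6630 with single samples left out. Array quality weights made 1 opioid probe set pass adjustment and Penk pass as a gene (−0.42), and turned the near-zero difference of Oprm1 (0.00036).

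With the hybridization controls as a covariate, which lay apart between the groups, 0 opioid probe sets had an unadjusted p under 0.05. The sign turned for Pomc (−0.12), Oprm1 (0.20) with its probe set 1387461_at (0.20), the Oprk1 probe set 1387102_at (−0.089) and Cux2 (−0.0075). List medians in that fit were −0.042 for peptide processing, −0.024 for receptor signalling, 0.12 for transcription factors, 0.023 for striatal neurons, −0.30 for claustrum and deep layers, 0.072 for GABA interneurons, −0.0075 for excitatory neurons, −0.029 for astrocytes, 0.14 for microglia and 0.19 for pituitary.

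Without control samples 1 and 3 together, where the lone control was assumed to vary like the SNI samples, the sign turned for Oprk1 (−0.070) and its probe sets 1368197_at (−0.037), 1368198_at (−0.097) and 1387102_at (−0.077), for the Oprm1 probe set 1369109_at (−0.023) and for the Oprl1 probe set 1369646_at (0.045). Pdyn (−0.25) and Oprm1 (−0.19) had an unadjusted p under 0.05 only in this fit. List medians were −0.082 for peptide processing, 0.11 for transcription factors, −0.096 for striatal neurons, 0.11 for oligodendrocytes, 0.18 for microglia, 0.25 for blood and endothelium and −0.078 for pituitary.

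With single samples left out, the sign turned in part of the fits for Pomc (−0.0060 to 0.10), Pnoc (−0.047 to 0.16), Oprm1 (−0.10 to 0.079), Oprk1 (−0.00052 to 0.070), the Oprm1 probe set 1387461_at (−0.25 to 0.037) and the Oprk1 probe sets 1368198_at (−0.016 to 0.10) and 1387102_at (−0.038 to 0.050). List medians ran from −0.057 to −0.0078 for peptide processing, −0.073 to 0.0084 for striatal neurons, −0.010 to 0.039 for excitatory neurons, 0.022 to 0.13 for astrocytes, 0.20 to 0.26 for microglia, −0.33 to −0.015 for oligodendrocytes, −0.018 to 0.053 for transcription factors, −0.11 to −0.030 for claustrum and deep layers and 0.0016 to 0.064 for pituitary. The cause of these shifts was not tested.

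Same-numbered samples did not deviate together over all probe sets (correlations −0.069 to 0.0085). This cannot tell whether the numbers mark pairs, since paired samples need not share such a deviation. The replicate block gave 9 probe sets at an adjusted p under 0.05, adjusted p = 0.213 for Penk and 0.439 for Oprl1 (limma), and changed no call for an opioid gene. Probe sets with several symbols gave no alternative, since none held a member. Centred values keep no signal over background, so a member near background cannot be told from one that did not differ.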
